A study of Xenopus laevis with 4 samples.

Results

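Protein-coding genes with peaks of methylated DNA at both of their ends were examined in pre-ZGA Xenopus laevis embryos, that is, before zygotic genome activation (ZGA). A gene was taken when the window of 1 kb on each side of its lower-coordinate end and the same window around its higher-coordinate end each overlapped a peak of replicate 1 and a peak of replicate 2 by at least 1 bp. These genes were thus chosen by the peak lists themselves, and 181 of 34461 protein-coding genes on the 18 chromosomes met the rule, with 362 windows of 2001 bp between them. Peaks came from MBD-seq, in which fragments that carry methylated CpG are bound by a methyl-CpG-binding domain protein and sequenced. All embryos were wild-type whole embryos at the 256-cell stage, 4.5 hpf (hours post fertilization), and each replicate pooled 250 of them. The series holds 2 MBD capture libraries (treatment H6-GST-MBD IP) and 2 Input libraries, genomic DNA that was not captured. Input entered only through peak calling by the authors. Replicate 1 had 17645240 tags and 131303 peaks, and replicate 2 had 23909019 tags and 222771 peaks. The pools hold all cells of the embryo, so a peak gives no information on which cells carried the methylation.

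In vertebrates, cytosine methylation at CpG is spread over most of the genome, including gene bodies and intergenic sequence, while CpG-rich promoters of active genes usually lack it. Maintenance methylation copies the mark after each replication, so it can be passed through rapid cleavage cycles. Xenopus laevis is an allotetraploid frog whose L and S subgenomes descend from different ancestors, and many genes persist as an L and an S homeolog. Gene strand was not given in the reference used here, so the ends are named by coordinate, and the promoter may lie at either of them.

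Of the 34461 genes, 430 had a peak of replicate 1 at both ends (1.25%) and 1231 had a peak of replicate 2 at both ends (3.57%). Both replicates together left the 181 genes, 0.525% of all, while for 3890 genes (11.3%) at least 1 of the ends had peaks of both replicates. A gene had to meet 4 conditions, a peak of each replicate at each end. None of the conditions was met by 21997 genes (63.8%), 1 by 7676 genes, 2 by 3895 and 3 by 712 (2.07%). Of these 712 genes, 533 lacked only a replicate 1 peak and 179 lacked only a replicate 2 peak. The replicate with fewer tags and fewer peaks was thus the one that most often kept a gene out. Since the same peaks chose the genes, all values that follow are descriptions without a test, and they are given beside the values over all genes. The replicates were independent biological samples per the study, but with n = 2 the spread between them is known only roughly.

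The border of the rule shows how little separates genes on either side of it. Just inside lay LOC121398789 (chromosome 9_10S, 51580626 to 51584739), whose lower window had 757 covered bases in replicate 1 but 3 in replicate 2. LOC108703789 had 83 and 8 covered bases in its higher window, and thumpd2.L (5L, 42400368 to 42413635), which encodes an RNA methyltransferase, had 24 and 13. Just outside lay LOC108710675 (3L, 160223935 to 160224888), whose higher window ended 2 bp from a replicate 2 peak. The lower window of zcchc10.S (3S, 109573434 to 109587749), a zinc finger gene, missed a replicate 1 peak by 8 bp. The lower window of rorc.S (8S, 102292525 to 102311698), a nuclear receptor gene, missed one by 10 bp. In 149 of the 712 genes that met 3 conditions, the missing peak lay within 1000 bp of the window.

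The peaks of the replicates coincided in most of the windows, which the rule did not require. In 344 of 362 windows (95.0%) a replicate 1 peak and a replicate 2 peak overlapped each other inside the window, against 3498 of 3709 windows (94.3%) at genes with a recurrent peak at a single end. In 165 of 181 genes (91.2%) this held at both ends, and in the other 16 at least 1 window had no base covered by both replicates. Covered bases per window ranged between 14 and 2001 in replicate 1, with a median of 501, and between 3 and 2001 in replicate 2, with a median of 501. The commonest width of a peak in the lists was also 501 bp, and the widest peak of the window had this width in 213 windows in replicate 1 (58.8%) and 143 in replicate 2 (39.5%). At genes with a recurrent peak at a single end these shares were 60.9% and 47.3%. More bases were covered in replicate 2 in 195 windows, more in replicate 1 in 123 and as many in both in 44. The amounts differed by 1.5 times or more in 139 of 362 windows. Over the 362 windows, which share the same 2 libraries, Spearman's rank correlation of covered bases between replicates was 0.56.

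**Figure D1:**
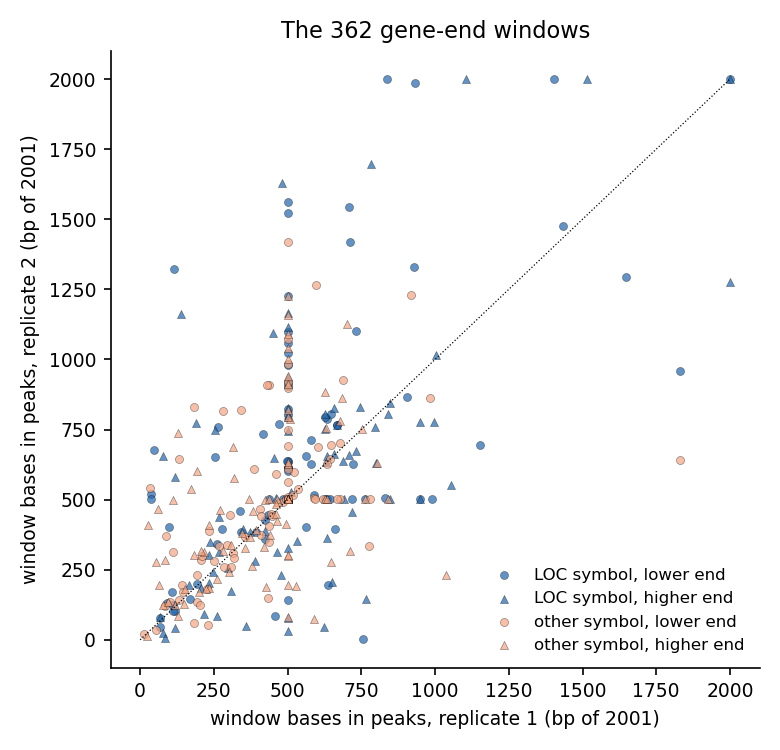
Each point is 1 of the 362 gene-end windows, placed by its bases in peaks of replicate 1 (x axis) and replicate 2 (y axis), in bp of 2001. Colour gives the kind of symbol, the marker gives the lower or higher end, and the dotted line marks equal values. Many points lie near 501 bp, the commonest peak width, and windows above 1000 bp were mostly those of LOC genes.

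Among these genes, all chosen for peaks at both ends, the amount covered at one end was at most loosely related to that at the other. Most windows held 1 peak, often cut by the window edge. The correlation below therefore depends on where peaks lay in the windows and does not show how the ends relate in general. Over the 148 genes whose windows do not overlap, Spearman's rank correlation between the bases shared by both replicates at the lower and at the higher end was 0.10. The less covered window of a gene had a median of 259 shared bases (highest 1435), and in 56 genes it had at least 400. Peaks lay mostly beside the gene end rather than over it. A peak of 501 bp fills only part of a window of 2001 bp, so most placements miss the end base. The end base itself was in a peak in 51 windows in replicate 1 (14.1%) and 70 in replicate 2 (19.3%), in both replicates in 39 windows (10.8%), and at both ends in both replicates in 4 genes. In 110 genes neither end base was in any peak. At genes with a recurrent peak at a single end the end base was in a peak in 9.38% of windows in replicate 1 and 11.4% in replicate 2. Without the overlapping windows of short genes the shares were closer, at 9.80% and 14.9%, against 9.04% and 11.2%. Among windows that do not overlap each other, the bases covered lay outside the gene for 59.9% in replicate 1 and 59.0% in replicate 2, against 68.5% and 66.8% at genes with a recurrent peak at a single end.

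Seen by distance from the gene end, coverage had 2 humps and a dip between them. In replicate 1, 31.9% of bases lay in peaks between 1000 and 500 bp outside the gene, 15.8% in the first 500 bp inside and 24.3% in the next 500 bp inside. At all other protein-coding genes these shares were 3.26%, 0.838% and 1.71%. The dip just inside the gene end was therefore present in both sets of genes, at different levels. The height inside the windows follows from the rule, and the peaks that gave it ran on past the windows. From 1 to 1.5 kb outside the gene, 16.4% of bases were in peaks in replicate 1 and 21.1% in replicate 2. From 1.5 to 2 kb outside, the shares were 4.10% and 8.42%, against 2.85% and 5.48% at all other genes. From 1 to 10 kb outside the genes, 4.67% of bases were in peaks in replicate 1 and 8.60% in replicate 2, against 2.90% and 5.51% at all protein-coding genes. Inside the genes, beyond 1 kb of either end, the shares were 4.05% and 7.27%, against 2.65% and 4.91%. The peaks that run past the windows add to these last shares.

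**Figure D2:**
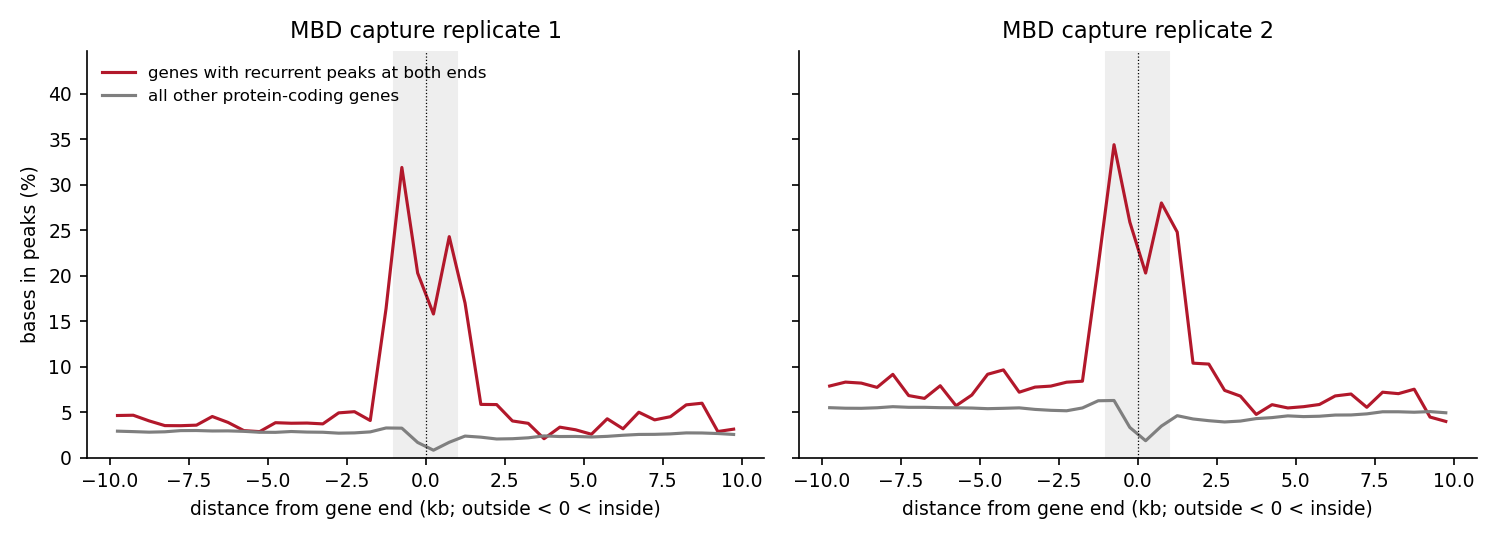
Share of bases in peaks (y axis, %) by distance from the gene end (x axis, kb, outside the gene negative and inside positive), with both ends pooled in steps of 500 bp and 1 panel per replicate. Red is the 181 genes and grey all other protein-coding genes, and the shaded band is the window used to choose them. In replicate 1 the red line reached 31.9% outside the gene end and dipped to 15.8% just inside it, where the grey line was at 0.838%.

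The genes were short for the genome. Their median length was 9576 bp (quartiles 2487 and 30391 bp), against 17192 bp (7222 and 39666 bp) over all protein-coding genes, and the range was 396 to 376246 bp. Genes under 2 kb made up 18.2% of the 181 genes against 6.01% of all. In these the windows of the ends overlap, so that a single peak can fill both. In 40 genes 1 and the same peak was the only one at both ends in at least 1 replicate, and 30 of these were among the 33 genes under 2 kb. The other 141 genes had a median of 16532 bp. They lack these 30 genes under 2 kb by construction, whereas the median of all genes includes 2070 genes under 2 kb. The medians therefore do not compare like sets. The median was 15575 bp for the 1231 genes found without replicate 1, and 3625 bp, with a LOC share of 68.8%, for the 64 genes found in the part of the peaks listed first (49.4% in replicate 1 and 49.2% in replicate 2). From 10 kb upwards, where no gene had the same peak at both ends, 89 of 22981 genes had peaks at both ends.

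**Figure D3:**
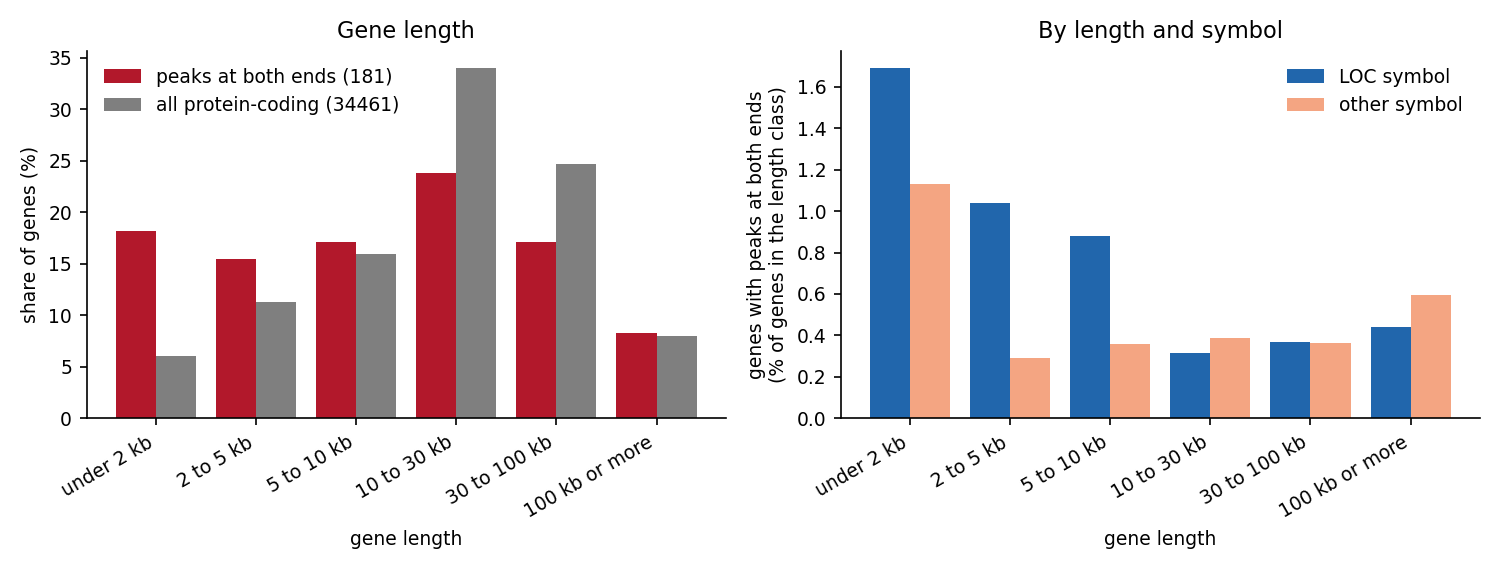
Left, share of genes in each length class (y axis, %) for the 181 genes with peaks at both ends (red) and all 34461 protein-coding genes (grey). Right, percent of the genes in each class that had peaks at both ends, for LOC symbols (blue) and other symbols (orange); LOC genes were ahead below 10 kb, with 1.04% against 0.293% from 2 to 5 kb, and above it the shares were 0.352% and 0.400%.

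Within the genes under 2 kb, 1 narrow length class had a lower share than the rest. Among genes of at least 900 and under 1000 bp, 1 of 457 had peaks at both ends (0.219%), but 32 of the other 1613 genes under 2 kb had (1.98%). This class is not among the length classes that follow. Its share rests on 1 gene, and the difference was not tested. Of genes under 2 kb 1.59% had peaks at both ends. From 2 to 5 kb the share was 0.717%, from 5 to 10 kb 0.563%, from 10 to 30 kb 0.367%, from 30 to 100 kb 0.364% and from 100 kb 0.546%. The shares of the short classes include genes in which 1 peak served both ends in at least 1 replicate. These were 30 of the 33 genes under 2 kb, 9 of the 28 from 2 to 5 kb and 1 of the 31 from 5 to 10 kb. With different peaks required, 2 of 1717 LOC genes and 1 of 353 other genes under 2 kb remained. The share with a recurrent peak at one end or both was in turn lowest under 2 kb, at 7.10%, and 10.8% to 12.3% in the other classes.

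LOC symbols, which mark genes without an assigned name, made up 92 of the 181 genes (50.8%), against 12049 of 34461 genes (35.0%). At least 1 end had a recurrent peak in 11.3% of LOC genes and in 11.3% of all genes. Among the genes with such an end, 6.76% of LOC genes had it at both, against 4.65% of all. The LOC genes concerned were short, with a median of 3141.5 bp against 9836 bp for all LOC genes, whereas the 89 genes with other symbols had a median of 25205 bp against 21312.5 bp. From 2 to 10 kb, 42 of 4364 LOC genes (0.962%) and 17 of 5046 other genes (0.337%) had peaks at both ends. With a different peak required at each end these shares were 0.756% and 0.317%. Above 10 kb they were 0.352% for LOC genes and 0.400% for other genes. Over all lengths, 39.7% of the 141 genes with different peaks at their ends had a LOC symbol. Under 2 kb, 1717 of all 2070 genes have a LOC symbol, but only 2 LOC genes and 1 other gene of the 141 are that short. The 35.0% over all genes is therefore not a like comparison for the 39.7%.

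Among LOC symbols the newer ones were in the set more often, and whether gene length accounts for this was not tested. Symbols that begin with LOC121, whose high numbers were given out later than the others, accounted for 47 of the 181 genes (26.0%) and 12.1% of all genes. Older LOC symbols accounted for 45 genes (24.9%) and 22.8% of all genes. Over all protein-coding genes the newer LOC genes are shorter, with a median of 4656 bp against 15165 bp for older LOC genes. Under 2 kb the kinds were closer, with 17 of 907 newer and 12 of 810 older LOC genes in the set. Of the 47 newer LOC genes in the set, 1 lay at 10 to 30 kb, 1 at 30 to 100 kb and the others below 10 kb. Of all newer LOC genes under 2 kb, 1.87% had peaks at both ends, against 1.69% of all LOC genes, newer ones included. The shares were 1.24% against 1.04% from 2 to 5 kb and 1.36% against 0.879% from 5 to 10 kb. From 10 to 30 kb they were 0.126% (1 gene) against 0.316%. From 30 to 100 kb they were 0.408% (1 gene) against 0.369%, and from 100 kb 0% against 0.443%. A curated transcript (NM accession) existed for 34 of the 181 genes (18.8%), against 29.8% of all protein-coding genes. Among the 181, the median share of the gene in peaks was 18.4% in replicate 1 and 22.3% in replicate 2 for the shorter LOC genes, against 5.09% and 7.25% for the longer genes with other symbols. Over all protein-coding genes the order was the opposite, with 0% and 1.67% for LOC genes, against 1.20% and 3.30% for genes with other symbols. The order among the 181 is bound up with the rule and with gene length. Each of them has peaks near both ends, and such peaks fill a larger share of a short gene. The contrast is therefore no finding about the kind of symbol. Windows with at least 1000 covered bases numbered 12 of 184 in LOC genes and 2 of 178 in the others in replicate 1, and 28 and 10 in replicate 2. In short genes the windows overlap, so 1 wide peak can count in both. LOC genes were also ahead among genes with a recurrent peak at a single end. There such windows numbered 29 of 1269 in LOC genes and 23 of 2440 in the others in replicate 1, and 95 and 86 in replicate 2.

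The gene with the largest shared coverage was LOC121394462 (6L, 77362967 to 77364274, 1308 bp). Its less covered window had 1435 bases in replicate 1 and 1476 in replicate 2, and its other window was covered over all 2001 bases in both. A single peak enclosed the gene in each replicate, of 3152 bp in replicate 1 and 2993 bp in replicate 2. LOC121397279 (8L, 27053643 to 27054773, 1131 bp) was likewise enclosed by a peak of 2973 bp in replicate 1 and of 3520 bp in replicate 2. These were the only protein-coding genes that lay inside a single peak in both replicates, which by itself places a gene among the 181.

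Among the 181 genes, 7 shared their exact length with another of them, a pattern that was noticed after their values were seen and was not set against other genes. The lengths were 1308, 3092 and 5766 bp. LOC121400379 (2S, 23574508 to 23575815) and LOC121394106 (5S, 66723576 to 66724883) share the length of 1308 bp with LOC121394462, and all 3 were among the 10 genes with the largest shared coverage. LOC121400379 was covered over 100% of its length in replicate 1 and 44.6% in replicate 2. LOC121394106 was covered over 41.6% in replicate 1 and 100% in replicate 2. In each of the 3 genes the peaks began 153 to 541 bp below the lower end and reached at least 2492 bp above it, well beyond the gene. Only 5 protein-coding genes of the genome have this length, all of them newer LOC records on different chromosomes. The other genes of 1308 bp, LOC121397787 (8S) and LOC121398757 (9_10S), had no peak of either replicate within 1500 bp. Genes of this length were thus either covered over their whole length in at least 1 replicate or without any peak. Whether they are copies of a single sequence was not tested, since no sequence was used here. Near-identical copies also share reads, so peaks at such genes are less certain than elsewhere.

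The length of 3092 bp also recurred, but no gene of this length was covered over its whole length. Of 6 genes of this length, all newer LOC records, LOC121399257 (1S, 2972569 to 2975660) and LOC121402905 (4L, 9052331 to 9055422) had peaks at both ends. LOC121399257 was covered over 49.5% in replicate 1, with 3 peaks nearby, and over 93.7% in replicate 2 by a single peak of 4259 bp. LOC121402905 was covered over 16.2% and 8.09%. The other 4 genes had no peak in either replicate within 1500 bp, except for 1 replicate 2 peak of 626 bp beside LOC121394451 (6L). LOC121402916 (4L, 9341662 to 9344755, 3094 bp) lies 286240 bp above LOC121402905 and was picked by name, since it does not share the length. The other gene of 3094 bp, LOC108711093 (1L), had no peak of either replicate within 1500 bp. In replicate 1, LOC121402905 and LOC121402916 each had 3 peaks nearby. The lowest of them lay outside LOC121402905 but over the end of LOC121402916. In replicate 1, LOC121402905 had peaks that began 870 bp below its lower end, 1835 bp above it and 3619 bp above it. In LOC121402916 the corresponding distances were 400 bp below, 1763 bp above and 3651 bp above. The outer peaks of both genes recurred in replicate 2, whereas the middle peak recurred only in LOC121402916. The genes of 5766 bp, LOC121400350 (2S) and LOC108715151 (4S), had unlike layouts, with 8.69% and 15.1% of LOC121400350 in peaks in replicates 1 and 2 and 0% of LOC108715151 in both.

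**Figure D4:**
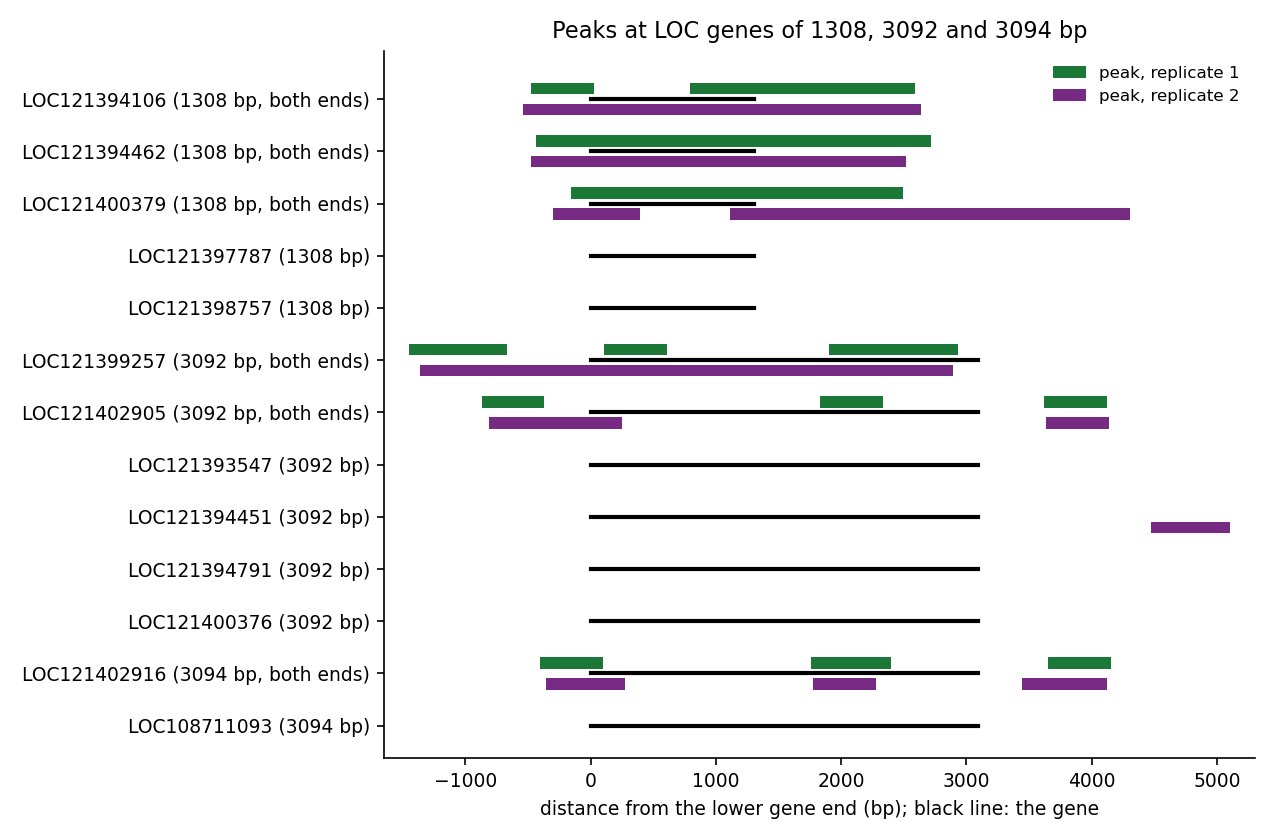
Peaks of replicate 1 (green) and replicate 2 (purple) at all protein-coding genes of 1308, 3092 and 3094 bp, plotted by distance from the lower gene end in bp, with the gene as a black line. Genes marked "both ends" belong to the 181. The 3 marked genes of 1308 bp are covered over most of their length in at least 1 replicate, and the unmarked genes have no peak except 1 of replicate 2 at LOC121394451.

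The remaining genes with the largest shared coverage were mostly short LOC genes as well. LOC108713596 (4L, 1102874 to 1103653, 780 bp) had 669 covered bases in each window in replicate 1 and 766 in replicate 2, from 1 peak each. LOC108706071 (1L, 233109330 to 233110544) had 710 and 1418 covered bases at its lower end in replicates 1 and 2, and 626 and 753 at its higher end. LOC108702031 (9_10L, 17040054 to 17049214), the longest LOC gene among the 10, had 628 and 793 covered bases at its lower end and 656 and 664 at its higher end. The shortest genes, of 396 to 531 bp, were LOC108703799, LOC108701911, LOC108703789, LOC121400936 and LOC121397878, and each of them had windows that largely coincide. LOC121400936 (1L, 178395083 to 178395599) had 948 covered bases in both windows in replicate 1 and 501 in replicate 2. LOC108701911 (9_10L, 124590943 to 124591425) had 501 and 801. At LOC121397878 (9_10L, 123383264 to 123383794) the gene itself had no covered base in either replicate, since its peaks lay 82 and 189 bp below it.

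Of the 89 genes with symbols other than LOC, 3 of them XB and 1 an MGC identifier, 85 had different peaks at their ends. Their windows were covered over a median of 464.5 bases in replicate 1 and 501 in replicate 2, against 501 and 505 for LOC genes. The gene with the largest shared coverage among them was coro2a.L (1L, 117327587 to 117417500), a coronin that binds actin. It had 643 and 644 covered bases at its lower end in replicates 1 and 2, and 679 and 781 at its higher end. All 4 peaks lay outside the gene, between 147 and 236 bp from its ends, so that the gene of 89914 bp was flanked on both sides at nearly the same distance. Inside it, 2.27% and 3.77% of bases were in peaks.

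jag1.S (5S, 5811484 to 5882068), a ligand of Notch receptors, had 501 and 608 covered bases at its lower end and 630 and 755 at its higher end. Peaks lay outside the gene at the lower end and inside it at the higher end. Its body was more covered than that of most genes with symbols, at 6.51% in replicate 1 and 18.4% in replicate 2, where the replicates differed. slco5a1.L (6L, 128461158 to 128522112), an organic anion transporter family member, had 501 covered bases in each replicate at its lower end, from peaks placed over the end base and 3 bp apart. At its higher end it had 684 and 861. arfgef3.S (5S, 47450971 to 47626305), of a family of exchange factors for Arf GTPases, had 633 and 626 covered bases at its lower end and 501 and 1089 at its higher end. Its lower peaks also lay over the end base.

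Several of the genes with symbols encode enzymes. srd5a3.S (1S, 29479843 to 29486640) encodes a reductase of the steroid reductase family that makes dolichol for protein glycosylation. It had 485 and 493 covered bases at its lower end and 501 and 1002 at its higher end. hsd11b1.S (2S, 42169976 to 42221565), which regenerates active glucocorticoid, had 920 and 1230 covered bases at its lower end and 501 and 1158 at its higher end. The peaks of replicate 2 ran over both of its end bases and those of replicate 1 stopped short of them. ippk.S (4S, 103291769 to 103336873), the kinase that makes inositol hexakisphosphate, had 687 and 927 covered bases at its lower end and 501 in each replicate at its higher end.

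cpsf2.S (8S, 21048808 to 21069337), a subunit of the factor that cleaves pre-mRNA for polyadenylation, had 501 and 563 covered bases at its lower end and 502 and 912 at its higher end. cops9.L (5L, 137081358 to 137084426), a subunit of the signalosome that regulates ubiquitin ligases, had 501 covered bases in each replicate at its lower end and 467 and 492 at its higher end. It is the shortest of the 10 genes with symbols, and its peaks differed by at most 25 bp in position between the replicates. cnnm4.L (3L, 132937349 to 132967739), a magnesium transporter, had 501 and 921 covered bases at its lower end and 633 and 501 at its higher end. Not a single base inside this gene was in a peak in either replicate. In 11 of the 181 genes this was the case. Such genes were rarer here than over all protein-coding genes, as the rule asks for peaks near the gene. In replicate 1, 9.39% of the 181 genes had no base in peaks, against 50% of all. In replicate 2 the shares were 7.18% and 37.2%.

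The longest genes carried peaks at both ends, and most of their bases lay outside peaks. ralyl.S (6S, 110471210 to 110847455, 376246 bp), an RNA-binding protein of the RALY family, had 501 covered bases in each replicate at its lower end and 465 and 501 at its higher end. LOC108707439 (2L, 33394950 to 33751680) had 422 and 360 covered bases at its lower end and 233 and 203 at its higher end. LOC108709170 (2S, 4406579 to 4746774) had 340 and 459, and 635 and 364. At both ends of each of these genes the peaks of the replicates overlapped.

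LOC108708699 (2L, 163860315 to 164122498) had 278 and 396 covered bases at its lower end and 233 and 302 at its higher end. gpc3.L (8L, 60168347 to 60395442), a glypican of the cell surface, had 145 and 171, and 381 and 460. Between 2.67% and 5.57% of these 5 genes was in peaks in replicate 1 and between 5.36% and 8.69% in replicate 2. Over the 46 of the 181 genes of 30 kb or more, 3.72% and 6.83% of the sequence beyond 1 kb of the ends was in peaks, against 2.71% and 5.01% over all 11254 genes of this length.

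Further genes were picked after their values were seen, for their known roles in embryos and cells. hhip.S (1S, 47558980 to 47665260), which binds Hedgehog ligands, had 283 and 259 covered bases at its lower end and 501 in each replicate at its higher end. shisa2.S (2S, 148417044 to 148436411), of a family described in Xenopus as retaining Wnt and FGF receptors in the endoplasmic reticulum, had 461 and 591, and 509 and 787. sdc2.L (6L, 140241149 to 140314546), a syndecan that binds growth factors at the cell surface, had 594 and 501, and 753 and 752. At these 3 genes the replicates overlapped at both ends.

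Agreement was weaker at others. daam1.S (8S, 7354414 to 7477723), a formin of the Wnt planar polarity pathway, had 436 and 407 covered bases at its lower end, but at its higher end 527 and 191, of which 26 were shared. brpf1.S (4S, 117734205 to 117787809), a scaffold of a histone acetyltransferase complex, had 501 and 80 covered bases at its higher end and no shared base there. polr2h.L (5L, 104407665 to 104412658), a subunit shared by nuclear RNA polymerases, likewise had 501 and 299 covered bases at its higher end and none shared. These genes met the rule because it asks for a peak of each replicate in the window and not for peaks that overlap.

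rpa2.S (2S, 69613205 to 69639883), a subunit of the protein that coats single-stranded DNA, had 501 covered bases in each replicate at its lower end and 422 and 499 at its higher end. dio2.S (8S, 24999046 to 25014669), which activates thyroid hormone, had 501 covered bases in every window and replicate, the commonest peak width.

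Families were read from symbols, since the reference gives no gene descriptions, and LOC genes could therefore not be placed in any. Of 19 families searched, 4 had members, with 7 of 1477 genes (0.474%), near the 0.525% of all genes. Solute carriers had 4 of 504 genes, namely slc13a2.S, a dicarboxylate transporter, slc26a6, an anion exchanger, slc30a7.S, a zinc transporter, and slco5a1.L. Zinc finger genes named znf had 1 of 193 (znf684.L), crystallins 1 of 91 (cryga.6.S, a lens crystallin) and NLR genes 1 of 6 (nod1.S, a sensor of bacterial peptidoglycan). No gene with peaks at both ends was found among 141 ribosomal protein genes, 120 potassium channels, 71 keratins, 69 cytochrome P450 genes, 58 collagens, 57 tripartite motif genes, 56 hox genes, 34 cadherins, 27 protocadherins, 22 histones, 18 olfactory receptors named as such, 6 MHC or immunoglobulin genes and 4 immunity GTPases. Vomeronasal and taste receptors had no symbol of the searched form. At 0.525% the expected number in each of these families is under 1, so the zeros carry little information. cryga.6.S (9_10S, 81186384 to 81188196) is under 2 kb, and its lower and higher windows had 410 and 280 covered bases in replicate 1 and 373 and 317 in replicate 2. znf684.L (9_10L, 49928608 to 49944137) had 386 and 610 covered bases at its lower end and 459 and 483 at its higher end.

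Most of the genes stood alone, but they had another gene of the set nearby more often than other genes did. Of the 181 genes, 21 (11.6%) had another one within 100 kb, in 10 groups, against 834 of 34280 other protein-coding genes (2.43%) with one of the 181 within this distance. Neighbours can share a peak, as described next for a few of them. The median distance to the nearest other gene of the set was 4.09 Mb. Of these groups 1 held 3 genes and 9 held 2. The number of protein-coding genes within 100 kb had a median of 5, as over all genes. Another protein-coding gene ended in a window of 29 genes (16.0%), against 13.8% over all genes.

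In 2 of the 10 groups, LOC genes that lie next to each other shared a peak. On 4L, LOC108713596 and LOC121402891 (1103653 to 1104223) meet at a single base, and the same peak of 669 bp in replicate 1 and of 766 bp in replicate 2 reached all 4 of their windows, with 513 and 527 covered bases in the higher window of LOC121402891. MGC115598 (1091584 to 1093468), the third gene of this group, had a peak of its own, with 777 and 334 covered bases in its lower window and 84 and 284 in its higher window. On 9_10L, LOC108703799 (135029937 to 135030332) and LOC108703789 (135031475 to 135031983) lie 1143 bp apart, and 1 peak between them, of 708 bp in replicate 1 and 660 bp in replicate 2, reached all their windows. The body of LOC108703789 was not in a peak in either replicate. On 9_10S, LOC108702582 (7957566 to 7959395) and LOC108702583 (7967391 to 7968878) had no peak in common. LOC108702582 had 659 and 396 covered bases at its lower end and 481 and 1631 at its higher end, and LOC108702583 had 417 and 735, and 501 and 329. In 8 of the 10 groups no peak was shared between genes.

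Groups made up of genes with symbols, picked after their values were seen, were glrx.L with rhobtb3.L on 1L and myrf.S with fads2.S on 4S. glrx.L (192464076 to 192483192), a glutaredoxin, and rhobtb3.L (192473499 to 192509136), overlap. glrx.L had 444 and 448 covered bases at its lower end and 127 and 86 at its higher end, and rhobtb3.L had 438 and 908, and 501 and 626. myrf.S (6644728 to 6728891), a transcription factor known from myelination, had 131 and 645 covered bases at its lower end and 591 and 74 at its higher end. fads2.S (6777016 to 6801428), a fatty acid desaturase 48125 bp away, had 231 and 52, and 501 and 1227. The region of the last 2 genes held 20 peaks of replicate 1 and 25 of replicate 2.

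Of the 181 genes, 87 lay on L chromosomes and 94 on S chromosomes. L chromosomes held 58.3% of all protein-coding genes but 48.1% of these, or 4.33 per 1000 genes on L and 6.54 per 1000 genes on S. Per 1000 genes, S was ahead in 8 of 9 homeologous pairs, and only in pair 3 was L ahead, with 4.65 on 3L and 4.16 on 3S. The highest value was on 4S, at 12.2 per 1000 genes (19 genes), against 6.35 on 4L (13 genes). The lowest was on 8L, at 2.09 (5 genes), against 7.50 on 8S (11 genes). In pair 1 the values were nearly the same, at 3.39 on 1L and 3.46 on 1S. Per 100 Mb of chromosome, L was ahead in pair 1 (3.85 against 3.46) and in pair 3 (7.43 against 5.31). By that measure pair 9_10 was at 10.2 on both chromosomes, and S was ahead in the other pairs. The S genes resembled the L genes in kind, with LOC shares of 50.6% on L and 51.1% on S and median lengths of 9575 bp on L and 9949 bp on S.

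**Figure D5:**
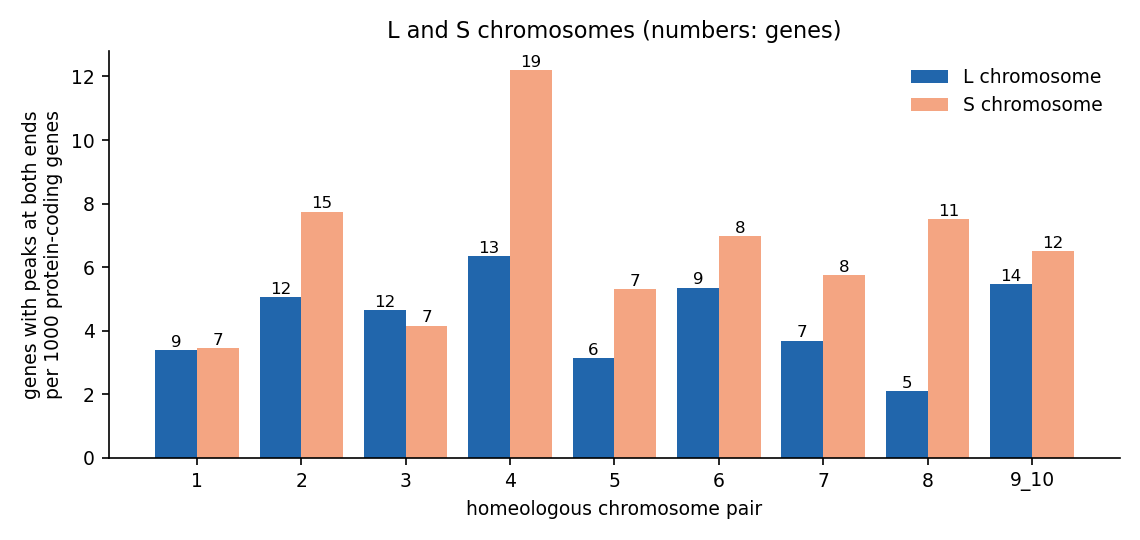
Genes with peaks at both ends per 1000 protein-coding genes (y axis) on the L (blue) and S (orange) chromosome of each homeologous pair (x axis), with the number of genes above each bar. S was higher in 8 of 9 pairs, most of all in pairs 4 and 8.

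The homeologs of these genes had peaks at their ends about as often as genes with a homeolog in general. A homeolog with the same symbol was found on the partner chromosome for 59 of the genes, and none of these homeologs had recurrent peaks at both ends. At 8 of them (13.6%) a recurrent peak was found at a single end, against a share of 11.4% with at least 1 such end over all 15518 genes with a homeolog. No peak of either replicate reached either window in 35 homeologs (59.3%), against 63.2% over all. Among the 8 homeologs were srd5a3.L, stard13.S, ipo7.L, smdt1.L, brpf1.L, daam1.L and eif6.L. daam1.L (8L, 94397317 to 94514389) had 978 and 1161 covered bases at its higher end in replicates 1 and 2, and none at its lower end. ipo7.L (4L, 4709676 to 4742477), a nuclear import receptor, had 650 and 1523 at its higher end and none at the other. With 0.525% of genes in the set, fewer than 1 pair with both homeologs would be counted among 59 genes by the overall share alone, so the count of 0 carries little information.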

How the data were processed

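MBD-seq peak lists of 2 replicates were used. Per the study's methods, bowtie placed the read pairs on genome v10.1, proper pairs were retained, and the authors called broad regions with HOMER 4.11 separately per replicate against the Input of that replicate (windows of 500 bp, minimum distance between peaks 1000 bp, at least 4-fold over Input, per the file headers). The deposited lists give positions only. The score in the deposited lists is 1 in every row, so peaks carry no height. A missing peak means that the calling threshold was not met, which also occurs where CpG is sparse or reads cannot be placed. The tag threshold was 12 in replicate 1 and 15 in replicate 2.

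Coordinates are 1-based and genes came from a RefSeq table of version 10.1 without strand, gene descriptions or sequence. Sequences were therefore not used here. Windows, overlaps, shared bases, distances between genes (groups joined at 100 kb or less) and homeologs (the same symbol ending in .L or .S on partner chromosomes) were computed with Python 3.11.15, numpy 2.4.6, pandas 2.3.3 and scipy 1.17.1, and drawn with matplotlib 3.10.9. The selection was checked on simulated data with planted peaks. No test was applied, since the peaks chose the genes and genes are not replicates. The genes and lists were chosen with earlier results of these data known. Named are the 10 genes with the most bases covered by both replicates in the less covered window, the same 10 among genes without LOC symbol, the 5 longest and 5 shortest, the members of the 3 largest groups (the shorter span at ties), 3 genes on each side of the rule, genes whose homeolog also met the rule (there was none), and those said to be picked later. Alternatives were windows of 500 bp and 2 kb, an overlap of 200 bp, single replicates, the first part of each list, different peaks at the ends, genes of 2 kb or more, and joining at 50 or 500 kb. 1 of the genes picked later is not reported here.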

Additional observations from a re-analysis of the deposited data

How the results depend on the processing

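The rule gave 181 genes, but 45 with windows of 500 bp, 712 with 2 kb, 111 where 200 bp or more had to overlap, 64 when the lists were cut to their first part (49.4% of replicate 1 peaks and 49.2% of replicate 2 peaks), and 430 to 1231 when either replicate was left out. Genes with a different peak at each end numbered 141, but 31, 520, 88 and 39 in the same 4 settings and 371 to 1126 without a replicate. All 45, 111 and 64 genes belong to the 181 by construction, since these settings only narrow the rule or shorten the lists.

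The median length was 9576 bp, but 16532 bp with different peaks at the ends, 15790 bp for genes of 2 kb or more (both settings remove short genes by construction), 5231 bp with windows of 500 bp, 3625 bp in the first part of the lists and 13156.5 to 15575 bp without a replicate. The LOC share was 50.8%, but 39.7%, 42.6%, 68.9% and 68.8% in the same 4 settings and 40.9% to 47.2% without a replicate. The share on L chromosomes was 48.1%, but 46.8% with different peaks, 46.8% with 200 bp or more, 52.8% with 2 kb, 44.4% with 500 bp and 52.4% to 53.5% without a replicate, below the 58.3% of all genes in each case. The share within 100 kb of another gene of the set was 11.6%. It was 8.51% with different peaks, 8.11% for genes of 2 kb or more, 9.01% with 200 bp or more and 9.38% in the first part of the lists. With windows of 500 bp it was 13.3%. With 2 kb it was 18.7% and without a replicate 12.8% to 24.7%, in larger sets of genes. Joined at 50 kb the share was 8.29%, and at 500 kb it was 19.3%. The cause of the other changes was not tested.

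No paired analysis was possible because no list was analysed here for Input, the only group that shares the replicate numbers. Replicate 1, with fewer tags and peaks, alone gave 430 genes, against 1231 for replicate 2 alone.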

Other observations

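A lncRNA gene overlapped a window of 5 of the 181 genes (2.76%), against 3.50% of all protein-coding genes, and a pseudogene overlapped a window of 3 (1.66%), against 0.728%. A snRNA gene lay in a window of 1 gene (0.552%, against 0.0435%). No tRNA or snoRNA gene did, against 0.221% and 0.154% of all genes, shares at which fewer than 1 would be counted among 181 genes. These counts are too small to set the genes apart. The genes had a median distance of 23.6 Mb to the nearer chromosome end, against 32.5 Mb for all genes, yet only 8 of them (4.42%) lay within 2 Mb of it, against 5.56% of all. S chromosomes, on which these genes were more frequent, were shorter than their L partners in each pair. Whether this accounts for the smaller median distance was not tested.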
